A study of Solanum lycopersicum with 8 samples.

Results

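AINTEGUMENTA-like genes other than *PLT3* and *PLT7* were followed in proliferating inflorescence meristems of tomato, in which both *PLT3* and *PLT7* or both *EJ2* and *J2* carry mutations. The 5 genes were chosen by ID from the 34109 genes of the expression table, as the AINTEGUMENTA-like rows left after *PLT3* and *PLT7*. They are Solyc04g077490 on chromosome 4, Solyc02g092050 on chromosome 2, Solyc03g123430 on chromosome 3, and Solyc11g008560 and Solyc11g061750 on chromosome 11, the chromosome being the one that the ID gives. The question was which of these relatives are on in the meristems, and whether any is raised where *PLT3* and *PLT7* are mutated.

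The *plt3* *plt7* meristems (4 libraries) came from plants with Cas9-induced coding mutations in both *PLT* paralogues, made in the cultivar M82, and the *ej2* *j2* meristems (4 libraries) from a stock with mutations in both *SEPALLATA* paralogues. All plants were 8 weeks old, and the paper's methods give 4 plants, without saying whether each library is a single plant. No wild type was analysed here, so every difference is between 2 mutants, and a change caused by one pair of mutations cannot be told apart from an opposite change caused by the other. Levels are given in TPM, a unit of transcript abundance that divides reads by transcript length and scales each library to the same sum, so that levels of different genes can be set side by side.

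AINTEGUMENTA-like proteins are plant transcription factors that bind DNA with a pair of AP2 domains. In *Arabidopsis thaliana* the family holds AINTEGUMENTA, which promotes growth of floral organs and other lateral organs, BABY BOOM, which can induce embryo development, and the PLETHORA proteins, which maintain stem cells in the root and act with overlapping roles in phyllotaxis and flower development. Since members of the family often act redundantly there, the levels of relatives are of interest wherever a pair of them is mutated. The tables used here do not say which *Arabidopsis* member each of the 5 tomato genes resembles most, so the genes are called by their IDs. The RefSeq gene table holds a gene named *ANT* on chromosome 4, the chromosome of Solyc04g077490, but pairs it with no ID of this kind.

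The DNA letters that the family is predicted to read are shown because *EJ2* was listed at 0 TPM in all 4 *plt3* *plt7* libraries, in which relatives of the PLT proteins were expressed. A motif scan of the tomato sequence upstream of *EJ2*, on chromosome 3, lists matches to *Arabidopsis* motifs of the family. Of the matches held here, the one with the lowest share of A bases is shown for each motif. This choice uses neither the score nor the position of a match. Those shown need not be the strongest, nor the PLT sites disrupted in the paper's *EJ2* promoter alleles. The AINTEGUMENTA match, with 33.3% A, is on the plus strand of the scanned sequence, and the BABY BOOM match, with 45.0% A, on its minus strand. They are given in lower case throughout, since the scan marks no core.
AINTEGUMENTA motif match upstream of EJ2: tgtcacacattctaattctaa
BABY BOOM motif match upstream of EJ2: gatacggagacggagagaaa
These letters are matches in a sequence, and binding of any of the 5 relatives to them was not measured in these data. An effect of the relatives on *EJ2* was not tested either.

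Of the 5 relatives, 3 were at 1 TPM or more in all 8 libraries and 2 were below 1 TPM in all 8. Solyc04g077490 was by far the most abundant on average, Solyc02g092050 was intermediate and the least variable, and Solyc03g123430 was low in most libraries and high in 1 of each genotype. With 5 TPM in every library as the level taken as on, 2 relatives passed in each genotype, Solyc04g077490 and Solyc02g092050.

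Solyc04g077490 reached 340, 499, 881 and 362 TPM in libraries 1 to 4 of *plt3* *plt7*, against 643, 1551, 92.3 and 93.0 TPM in libraries 1 to 4 of *ej2* *j2*. The *plt3* *plt7* values all lay inside the range of *ej2* *j2*, in which libraries 1 and 2 were high and libraries 3 and 4 low. Its mean was 521 ± 251 TPM in *plt3* *plt7* and 595 ± 688 TPM in *ej2* *j2* (SD, n = 4 each), above the mean of 99.4% and 99.6% of all genes in the table. The highest library exceeded the lowest 2.59 times in *plt3* *plt7* and 16.8 times in *ej2* *j2*.

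Solyc02g092050 was at 52.9, 55.0, 81.9 and 44.8 TPM in *plt3* *plt7*, against 88.9, 32.0, 92.3 and 94.9 TPM in *ej2* *j2*. Of the *ej2* *j2* libraries 3 lay above every *plt3* *plt7* library, and library 2 below all of them, so the groups overlapped. Its mean was 58.6 ± 16.1 TPM in *plt3* *plt7* and 77.0 ± 30.1 TPM in *ej2* *j2* (SD, n = 4 each), and 87.7% and 91.0% of all genes had lower means.

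Solyc03g123430 was at 1.83, 85.4, 5.41 and 4.53 TPM in *plt3* *plt7*, against 8.56, 3.56, 12.4 and 50.7 TPM in *ej2* *j2*. Library 2 of *plt3* *plt7* was 21.8 times the mean of the other 3 of its genotype, and library 4 of *ej2* *j2* 6.21 times, whereas the remaining 6 libraries ran from 1.83 to 12.4 TPM. The mean of 24.3 ± 40.8 TPM in *plt3* *plt7* and of 18.8 ± 21.6 TPM in *ej2* *j2* (SD, n = 4 each) therefore rested on 1 library each. The medians were 4.97 TPM in *plt3* *plt7* and 10.5 TPM in *ej2* *j2*.

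Both remaining genes were near the floor of the table. Solyc11g008560 was listed at 0 in all 4 *plt3* *plt7* libraries, against 0.271, 0, 0.0982 and 0 TPM in *ej2* *j2*. Solyc11g061750 was also listed at 0 in all 4 *plt3* *plt7* libraries, against 0, 0, 0.227 and 0 TPM in *ej2* *j2*. A value of 0 does not show that a transcript is absent, since read numbers cannot be had from TPM and library depth is therefore unknown. Of all genes in the table, 36.1% were likewise under 1 TPM in all 8 libraries.

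**Figure D1:**
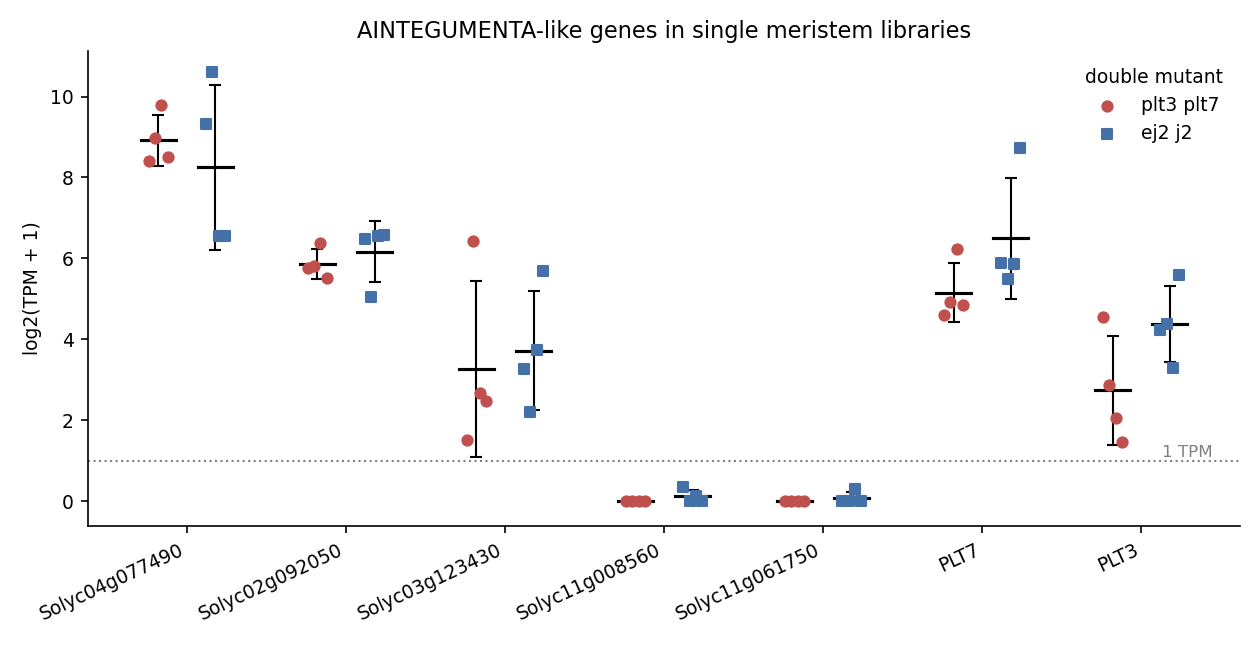
Level of each AINTEGUMENTA-like gene as log2(TPM + 1) in the 4 *plt3* *plt7* libraries (red circles) and the 4 *ej2* *j2* libraries (blue squares); black lines are means, error bars are SD on the log2 scale (n = 4 each), and the dotted line is 1 TPM. Solyc04g077490 stands highest, Solyc11g008560 and Solyc11g061750 lie at or near 0, and the genotypes overlap for each of the 3 expressed relatives.

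Solyc04g077490 exceeded Solyc02g092050 in all 4 *plt3* *plt7* libraries, by 6.43, 9.08, 10.8 and 8.09 times, and their ranges did not overlap there. In *ej2* *j2* the same ratio was 7.23, 48.5, 1.000 and 0.980, so in libraries 3 and 4 the 2 genes were at practically the same level. The *plt3* *plt7* ratios lay within the range of the *ej2* *j2* ratios. Solyc02g092050 and Solyc03g123430, the next neighbours in the order, had overlapping ranges in both genotypes. The ratio of Solyc02g092050 to Solyc03g123430 was 28.9, 0.644, 15.1 and 9.89 in *plt3* *plt7* and 10.4, 8.97, 7.46 and 1.87 in *ej2* *j2*, so the order turned only in *plt3* *plt7* library 2.

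No relative was raised in *plt3* *plt7* beyond the spread between libraries. The 3 expressed relatives were tested with limma on log2(TPM + 1), together with all 19544 genes whose mean over the 8 libraries was at least 1 TPM. Of the 3, 0 were higher and 0 lower at an adjusted p under 0.05 (limma), and 0 had an unadjusted p under 0.05. Of all genes tested, 1.84% passed in either direction and 0.875% were higher in *plt3* *plt7*. In addition, 0 of the 3 had groups that did not overlap, against 6.87% of all genes tested. Solyc11g008560 and Solyc11g061750 fell under the filter and were not tested.

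For Solyc04g077490 the log2 difference, *plt3* *plt7* minus *ej2* *j2*, was 0.66 (standard error 0.92, 95% interval -1.16 to 2.48, adjusted p = 0.840, limma). The exact permutation test, two-sided, gave p = 0.514. The interval corresponds to between 0.448 and 5.57 times the *ej2* *j2* level on this scale. The sign of the log2 difference was opposite to that of the means in TPM, which were 0.875 times as high in *plt3* *plt7*. A mean of TPM gives the highest library, *ej2* *j2* library 2, more weight than a mean of log2 values does. Without *ej2* *j2* library 2 the log2 difference was 1.44, and without *ej2* *j2* libraries 3 or 4 it was 0.09 each time, and none of these fits passed the test (adjusted p 0.522 to 0.986, limma).

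For Solyc02g092050 the log2 difference was -0.30 (standard error 0.91, 95% interval -2.08 to 1.48, adjusted p = 0.937, limma). The exact permutation test, two-sided, gave p = 0.429. Without *ej2* *j2* library 2, the lone low one, the difference was -0.68 (adjusted p = 0.825, limma). limma draws the standard errors almost wholly from genes of similar level, so they differ from what a gene's own libraries give. For Solyc02g092050 the error was 0.42 from its own libraries and 0.62 without the filter on low values, where less is borrowed (adjusted p = 0.878, limma). For Solyc04g077490 the error of 0.92 was narrower than the 1.07 from its own libraries and the 1.05 without the filter.

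For Solyc03g123430 the log2 difference was -0.45 (standard error 0.88, 95% interval -2.17 to 1.27, adjusted p = 0.894, limma). The exact permutation test, two-sided, gave p = 0.686. The mean in TPM was, in the other direction, 1.29 times as high in *plt3* *plt7*. The difference was 0.21 without *ej2* *j2* library 4, 0.14 without *plt3* *plt7* library 1 and -1.50 without *plt3* *plt7* library 2. The standard error was 1.31 from the gene's own libraries and 1.12 without the filter, so the interval above is narrower than its own libraries give. The difference has no settled direction, and with 4 libraries against 4 the smallest exact p is 0.0286. The intervals of all 3 genes reach from a lower to a higher level in *plt3* *plt7*, so these values do not show that the genotypes have equal levels.

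**Figure D2:**
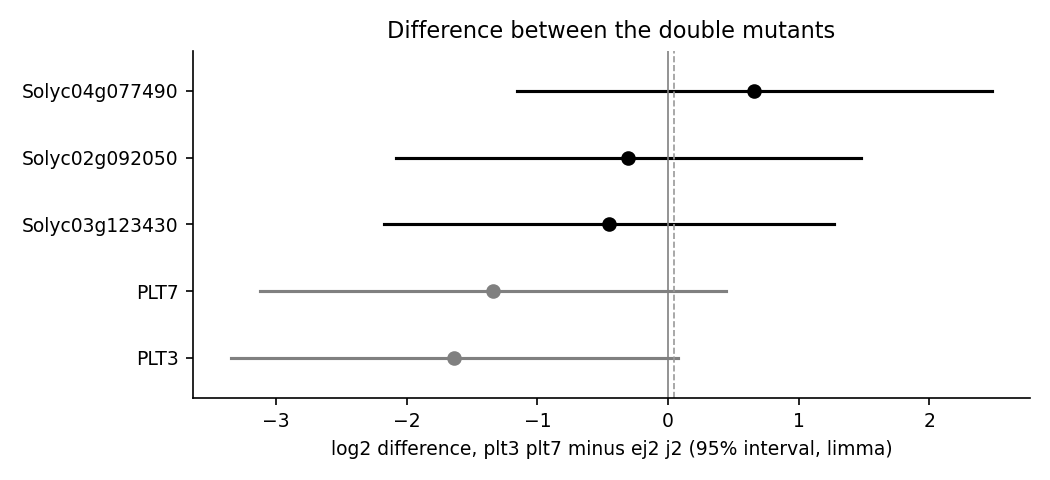
Log2 difference in level between *plt3* *plt7* and *ej2* *j2* (points) with its 95% interval from limma (lines) for the 3 expressed relatives (black) and for *PLT7* and *PLT3* (grey). The solid vertical line is 0, the dashed one the median of all genes tested (0.05), and all 5 intervals cross 0.

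**Figure D3:**
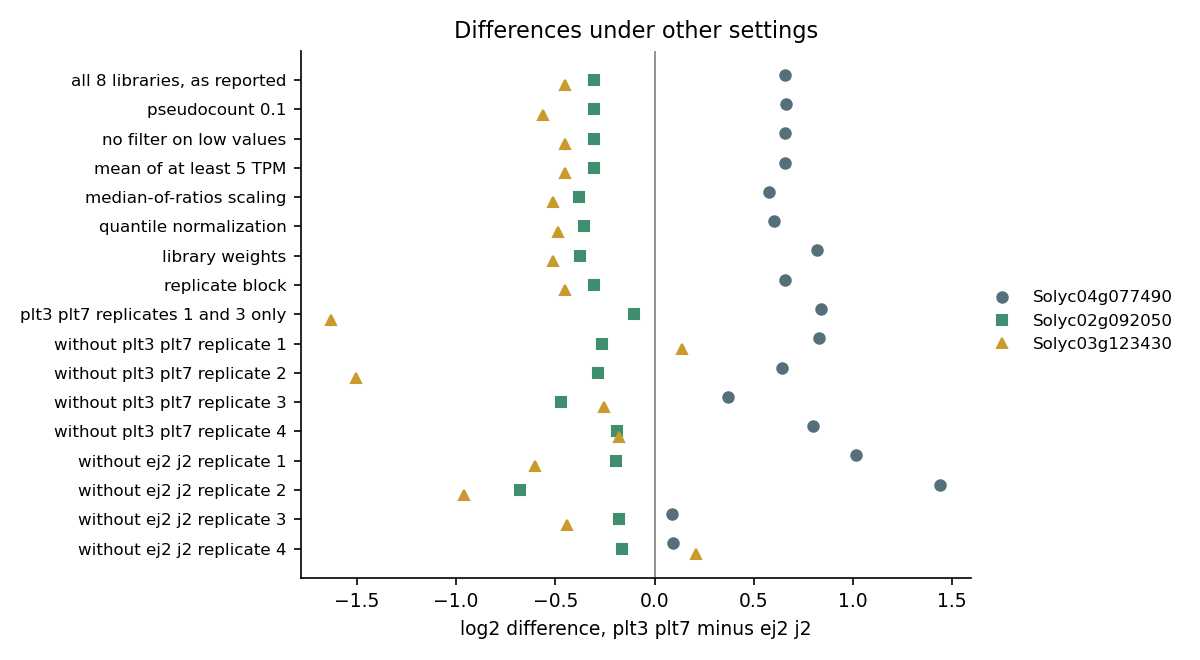
Log2 difference of the 3 expressed relatives under each setting, one row per setting. Solyc04g077490 (circles) stayed above 0 and Solyc02g092050 (squares) below 0 in all rows, whereas Solyc03g123430 (triangles) changed sign when *plt3* *plt7* replicate 1 or *ej2* *j2* replicate 4 was left out.

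The 3 expressed relatives differed in how far replicate libraries lay apart. The SD of log2(TPM + 1) within genotypes, pooled over both, was 1.85 for Solyc03g123430, 1.51 for Solyc04g077490 and 0.59 for Solyc02g092050. Over all genes tested the median was 1.10. Solyc03g123430 varied more than 96.1% of the genes tested, Solyc04g077490 more than 84.8% and Solyc02g092050 more than 5.13%. For Solyc04g077490 the spread lay mostly in *ej2* *j2*. There the highest library was 16.8 times the lowest, against 2.59 times in *plt3* *plt7*. The limma fit takes the spread of a gene to be the same in both genotypes.

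**Figure D4:**
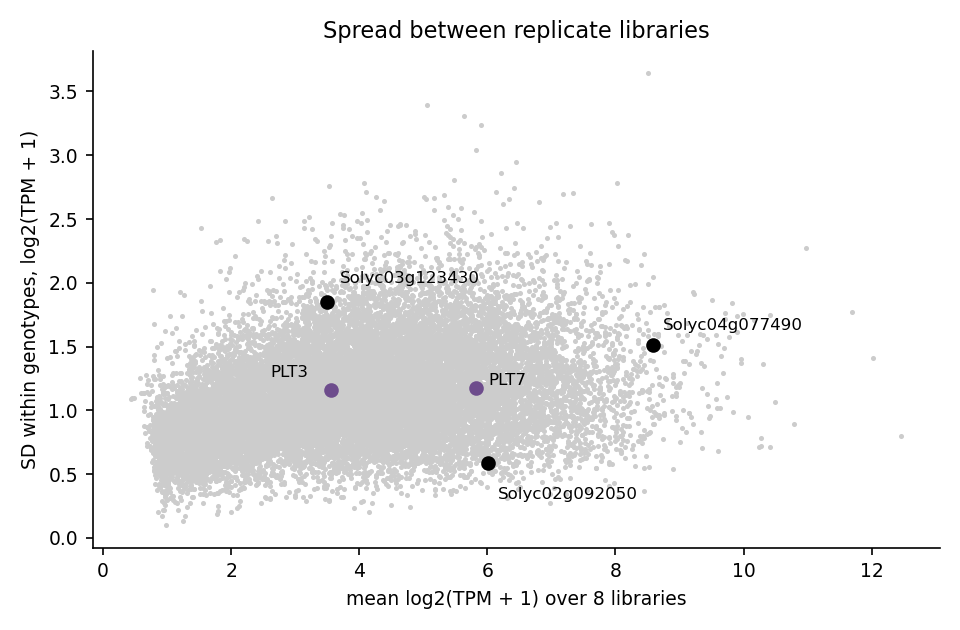
SD between libraries of the same genotype against mean level, both of log2(TPM + 1), for all 19544 genes tested (grey), the 3 expressed relatives (black) and *PLT3* and *PLT7* (purple). Solyc02g092050, at an SD of 0.59, varied more than 5.13% of the genes tested, and Solyc03g123430, at 1.85, more than 96.1%.

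Set beside the mutated pair, the relatives held most of the family's transcripts in 7 of the 8 libraries. The summed level of the 5 relatives was 394, 640, 969 and 412 TPM in *plt3* *plt7*, against 741, 1587, 197 and 239 TPM in *ej2* *j2*. *PLT3* and *PLT7* together were at 45.8, 35.8, 76.9 and 29.7 TPM in *plt3* *plt7*, against 75.6, 63.9, 66.2 and 470 TPM in *ej2* *j2*. The relatives thus made up 89.6 to 94.7% of the 7-gene sum in *plt3* *plt7* and 33.7 to 96.1% in *ej2* *j2*, and the groups overlapped. In *ej2* *j2* library 4 *PLT7*, at 423 TPM, held most of the sum, and in the other 3 libraries of this genotype the relatives made up at least 74.9%.

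The sum was mostly Solyc04g077490, which held 73.9 to 84.3% of the 7-gene total in *plt3* *plt7* and 13.1 to 94.0% in *ej2* *j2*. Without it, the summed level of the other 4 relatives was 54.7, 140, 87.3 and 49.3 TPM in *plt3* *plt7*, against 97.8, 35.5, 105 and 146 TPM in *ej2* *j2*, with overlapping groups. These sums were not tested. Both *plt* mutations lie in coding sequence and the mutated genes still gave reads, so *PLT3* and *PLT7* levels in *plt3* *plt7* say nothing about working protein.

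**Figure D5:**
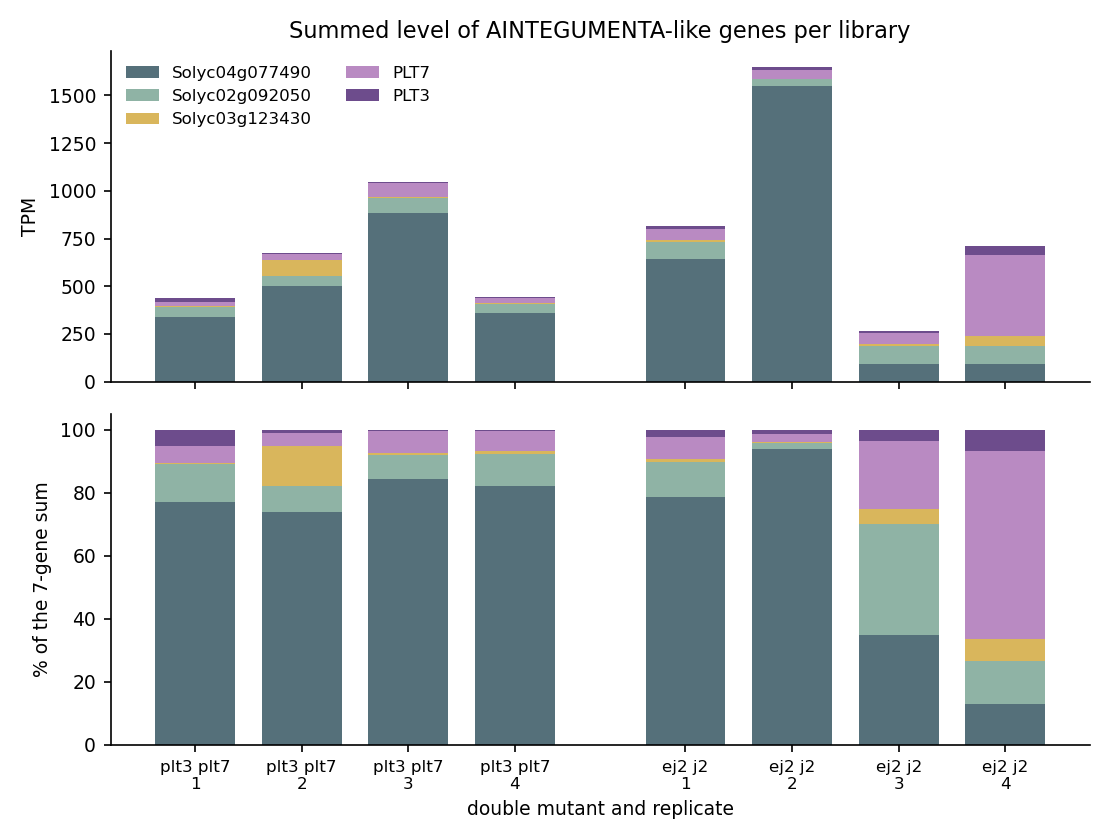
TPM (upper panel) and share of the 7-gene sum in percent (lower panel) of the AINTEGUMENTA-like genes in each library, *plt3* *plt7* on the left and *ej2* *j2* on the right. Solyc04g077490 forms the largest part in all 4 *plt3* *plt7* libraries and in *ej2* *j2* libraries 1 and 2. Solyc11g008560 and Solyc11g061750 are too low to be drawn.

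*PLT3* and *PLT7* themselves had log2 differences of -1.64 (95% interval -3.35 to 0.07) and -1.34 (95% interval -3.13 to 0.45), which did not pass the test (adjusted p = 0.391 and 0.552, limma). On leaving out single libraries the difference of *PLT3* ran from -2.24 to -1.21 and that of *PLT7* from -1.70 to -0.60, the last without *ej2* *j2* library 4, and none passed. Their intervals overlap those of the 3 relatives, and a difference between the genes in how far they changed was not tested. *PLT7*, at 23.3 to 73.7 TPM in *plt3* *plt7* and 44.1 to 423 TPM in *ej2* *j2*, was of the order of Solyc02g092050. *PLT3*, at 1.75 to 22.5 TPM in *plt3* *plt7* and 8.85 to 47.2 TPM in *ej2* *j2*, was of the order of Solyc03g123430. In *ej2* *j2* library 4 *PLT3*, *PLT7* and Solyc03g123430 were each at their highest level of the 4 libraries, while in *plt3* *plt7* library 2, where Solyc03g123430 reached 85.4 TPM, *PLT3* and *PLT7* were at 6.36 and 29.4 TPM.

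*EJ2*, by contrast, a MADS-box gene that limits branching of the inflorescence together with *J2*, was listed at 0 in all 4 *plt3* *plt7* libraries, against 15.2, 8.00, 12.6 and 3.67 TPM in *ej2* *j2*. Its log2 difference was -3.29 (standard error 0.66, adjusted p = 6.09e-04, limma). With all *plt3* *plt7* libraries at 0 the size of this value is set by the pseudocount, and it was -6.46 with a pseudocount of 0.1. It did not pass without the filter on low values (adjusted p = 0.0609) or with *plt3* *plt7* libraries 1 and 3 alone (adjusted p = 0.0684, limma). *EJ2* is one of the mutated genes of *ej2* *j2*, so the comparison is with a line in which *EJ2* itself is mutated. Solyc04g077490 was at 340 to 881 TPM in the *plt3* *plt7* libraries, and an effect of any relative on *EJ2* was not tested.

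The genes whose levels ran most like those of Solyc04g077490 were found by the root mean square difference of log2(TPM + 1), each gene centred on its own mean over the 8 libraries. The nearest was Solyc09g018690.4, at 0.44, followed by Solyc06g053660.3, at 0.48, and the median over 19541 genes was 1.75. Solyc09g018690.4 was at 9.26, 21.6, 28.9 and 12.9 TPM in *plt3* *plt7*, against 22.4, 45.5, 5.41 and 5.15 TPM in *ej2* *j2*, so it shared with Solyc04g077490 the high *ej2* *j2* libraries 1 and 2 and the low libraries 3 and 4. Neither gene is named in the tables used here, and some genes of so many will run alike over 8 libraries.

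Genes of the miR172-regulated AP2 group, the wider family's other branch with a pair of AP2 domains, were taken as a list of 5 tomato IDs. The pairing of these IDs with the group is from general knowledge and was not checked against a table. Of the 5, 2 were tested, and 0 were higher and 0 lower (limma). Their log2 differences were -0.81 and -0.60, against a median of 0.05 over all genes tested.

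The libraries were checked against lists of tissue markers, also set by ID from general knowledge. Of 10 genes of shoot and inflorescence meristems, 8 were at 1 TPM or more in every *plt3* *plt7* library and 7 in every *ej2* *j2* library, and their summed level was 279 to 927 TPM in *plt3* *plt7* and 407 to 1135 TPM in *ej2* *j2*. Of these 10, 1 was lower in *plt3* *plt7* and 0 were higher (limma), where 0.962% of all genes tested were lower. The gene called was the 1 listed at 0 in all 4 *plt3* *plt7* libraries, so the size of its log2 difference, -2.16, is set by the pseudocount. Their log2 differences ran from -2.96 to 0.85 with a median of -0.77, against 0.05 over all genes tested, and 7 of the 10 were below 0. The summed level of 8 green tissue genes was 366 to 510 TPM in *plt3* *plt7* and 238 to 540 TPM in *ej2* *j2*, with 5 tested, 0 higher and 0 lower (limma), and 2 of the 8 were listed at 0 throughout *plt3* *plt7*, against 1 of the 8 throughout *ej2* *j2*. Of the 5 green tissue genes tested, 4 had log2 differences below 0, with a median of -1.76 and a range of -1.80 to 0.77. Those at -1.76 and -1.79 had standard errors of 0.58, a size that genes of low level have in this fit. The median is the value of 1 of these and therefore says little about the summed level. The gene at -1.80 had a standard error of 0.90, a size of genes at higher level, and did not pass (adjusted p = 0.349, limma). The part of these marker differences in the levels of the relatives was not tested. The pollen gene was listed at 0 in all 4 *plt3* *plt7* libraries and reached at most 3.03 TPM in *ej2* *j2*. In tissue of mixed cells, fewer expressing cells and less RNA per cell cannot be told apart.

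On the first principal component of log2(TPM + 1) the genotypes did not overlap, at -113 to -22.7 in *ej2* *j2* and 26.2 to 103 in *plt3* *plt7*. On the second, library 2 of *ej2* *j2* stood apart from the other 7. It lay at 150 on the second principal component of log2(TPM + 1), against -51.7 to -7.93 in *plt3* *plt7* and -73.7 to 7.72 in the other *ej2* *j2* libraries, and its 10 highest genes held 10.7% of the total, against 4.14 to 5.66% in *plt3* *plt7*. This is the library with the highest Solyc04g077490 level and the lowest Solyc02g092050 and Solyc03g123430 levels of its genotype. The 10 highest genes also held 9.16% in *ej2* *j2* library 1, the other one with high Solyc04g077490. The part of these library differences in the levels of the relatives was not tested.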

How the data were processed

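RNA was depleted of ribosomal RNA and sequenced from 4 *plt3* *plt7* and 4 *ej2* *j2* libraries. The authors deposited TPM values. The submitters' processing notes name Trimmomatic and STAR 2.6.1 for these libraries, and the paper's methods, worded for published data sets, add the SL4.0 cDNA models as target and R for TPM. Strand, and how reads shared between paralogues were treated, are not given in these sources, so reads may be split between AINTEGUMENTA-like genes. All 8 columns were used. Depth is unknown.

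Values were compared as log2(TPM + 1) with limma 3.58.1 in R 4.3.3, for genes averaging 1 TPM or more (trend, two-sided, Benjamini-Hochberg over all genes tested, threshold 0.05), beside exact permutation tests in scipy 1.17.1. A fold change on this scale understates changes of low genes, and p-values measure only the spread between these libraries. limma combined 6 residual degrees of freedom with 365 prior ones. Alternatives were another pseudocount, other filters, 2 rescalings, weighting of libraries, a replicate block, single libraries left out, and *plt3* *plt7* libraries 1 and 3 alone, since a plot in the paper uses fewer *plt3* *plt7* libraries than were deposited and its text does not name them. Libraries 1 and 3 need not be those of the plot, and no other pair was fitted.

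The genes named are the 5 relatives, *PLT3*, *PLT7*, *EJ2* and, for the relative with the highest mean, the 2 genes nearest to it in pattern. Members and lists were chosen with earlier results of these data known, and 1 further list is not reported here. The RefSeq table, assembly SLM_r2.1, held 0 entries with IDs of this kind, so 0 of the 5 relatives could be matched to a protein or promoter sequence.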

Additional observations from a re-analysis of the deposited data

Results flagged for a closer look

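Single libraries were looked for in 14 groups of 4 TPM values, those of the 5 relatives, of *PLT3* and *PLT7* and of the relatives' sum, without the 2 groups listed wholly at 0. In 5 of the 14 the library at one end lay far from the other 3. For normally distributed values chance sets apart about 5% of groups, a rate that need not hold for TPM, and on log2(TPM + 1) 3 of the 5 still stood apart. These 3 were Solyc02g092050 in *ej2* *j2* replicate 2, at 32.0 TPM against 88.9 to 94.9 TPM in the other *ej2* *j2* libraries, the 423 TPM of *PLT7* in *ej2* *j2* replicate 4, and Solyc11g061750 in *ej2* *j2* replicate 3, at 0.227 TPM where the other 3 were listed at 0. With 3 values at 0 the rule sets apart any value above 0, so the flag for Solyc11g061750, a gene near the floor, carries no information. Apart in TPM alone were Solyc03g123430 in *plt3* *plt7* replicate 2, at 85.4 TPM against 1.83 to 5.41 TPM in the other *plt3* *plt7* libraries, and the 73.7 TPM of *PLT7* in replicate 3 of *plt3* *plt7*.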

How the results depend on the processing

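The number of relatives called was 0 under all 16 alternatives. The log2 difference of Solyc04g077490 stayed above 0 under all 16, at 0.09 to 1.44 on leaving out single libraries, and that of Solyc02g092050 below 0, at -0.68 to -0.16. That of Solyc03g123430 ran from -1.50 to 0.21 on leaving out single libraries, turning to 0.21 without *ej2* *j2* replicate 4 and to 0.14 without *plt3* *plt7* replicate 1, and was -1.63 with *plt3* *plt7* libraries 1 and 3 alone, none past the threshold (adjusted p 0.513 to 0.982, limma). The mean summed level of the relatives was 604 TPM in *plt3* *plt7* and 691 TPM in *ej2* *j2*, 82.9 and 96.0 TPM without Solyc04g077490, and 482 to 673 and 392 to 855 TPM on leaving out single libraries. The number of all genes called, 359, was 11 without a filter on low values, 229 with a minimum mean of 5 TPM, 85 with *plt3* *plt7* libraries 1 and 3 alone, and 138 to 446 without single libraries (138 to 220 without *plt3* *plt7* replicates 1 or 4 or *ej2* *j2* replicates 1, 3 or 4). With a replicate block it was 303 and the difference of Solyc04g077490 was 0.66 (adjusted p = 0.841, limma). Deviations of same-numbered libraries correlated at -0.03 to 0.01, so no shared pattern by number was found. Whether same-numbered libraries were handled together cannot be told from these values. TPM keeps no read numbers, which leaves the counting error of low relatives unknown.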
